A study of Mus musculus with 4 samples.

Results

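The genes described here are 9 mouse genes of sugar digestion, sugar absorption and fructose metabolism. They were taken by symbol from a list of genes of known function, which was drawn up with earlier results of these data known, and all 9 were found in both deposited tables, out of 27425 genes listed in either. Of these, 4 encode enzymes of the enterocyte brush border that split dietary sugars (Sis, Lct, Mgam and Treh). Another 3 encode sugar transporters (Slc5a1, Slc2a2 and Slc2a5), and 2 encode enzymes of fructose breakdown (Khk and Tkfc).

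The study compared gene expression in small intestinal crypts of fasted and fed mice, with and without tetracycline, an antibiotic used to reduce AKK (an abbreviation that the labels do not spell out). All mice were male C57BL/6J aged 9 weeks. There were 4 groups with 1 labelled sample each: fed without tetracycline, fasted for 24 hours without tetracycline, fed with 21 days of tetracycline, and fasted for 24 hours with 21 days of tetracycline. The labels state no transgene or other allele, and no number of animals per sample. Crypts, the pits of the intestinal lining that hold the stem cells, were shaken loose in a chelating buffer and then trypsinised, and the RNA library kit does not keep the strand.

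Starch and disaccharides are cut to single sugars by enzymes anchored in the microvilli of absorptive enterocytes. Glucose and galactose then enter the cell with sodium through SGLT1, the product of Slc5a1, fructose enters through GLUT5, the product of Slc2a5, and all 3 sugars can leave through GLUT2, the product of Slc2a2. Inside the cell, ketohexokinase (Khk) phosphorylates fructose, and triokinase (Tkfc) phosphorylates the glyceraldehyde that is released once the product is split. The disaccharidases and transporters are known as markers of mature enterocytes on the villus, above the crypt.

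The bases just before the start sites of 3 of the disaccharidase genes, those with the most motif matches of the 9 genes, are shown as a description. They come from RefSeq on build GRCm38.p6, where all 9 genes had an entry. Each run is the 250 bases before the start of transcription, 5′ to 3′ on the gene's own strand, at chr3:72967864-72968113 (minus strand) for Sis, at chr1:128328319-128328568 (minus strand) for Lct and at chr6:40628581-40628830 (plus strand) for Mgam. Capitals mark matches on either strand to 5 short motifs. The letters GTTAAT stand for part of a site of the HNF1 factors, which drive many enterocyte genes. The letters TTTATG stand for a site of the intestinal CDX factors, and AGATAA for a site of the GATA factors. An E-box was searched as CACGTG and a TATA box as TATAAA.
Sis: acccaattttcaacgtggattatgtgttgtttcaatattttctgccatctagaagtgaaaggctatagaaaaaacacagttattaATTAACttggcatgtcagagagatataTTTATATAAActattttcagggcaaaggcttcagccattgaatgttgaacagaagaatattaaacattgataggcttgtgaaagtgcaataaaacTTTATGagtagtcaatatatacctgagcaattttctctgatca
Lct: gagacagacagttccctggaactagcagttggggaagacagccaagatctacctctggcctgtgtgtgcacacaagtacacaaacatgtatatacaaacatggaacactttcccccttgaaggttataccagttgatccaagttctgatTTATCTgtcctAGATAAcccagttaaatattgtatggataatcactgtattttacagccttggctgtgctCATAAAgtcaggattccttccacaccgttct
Mgam: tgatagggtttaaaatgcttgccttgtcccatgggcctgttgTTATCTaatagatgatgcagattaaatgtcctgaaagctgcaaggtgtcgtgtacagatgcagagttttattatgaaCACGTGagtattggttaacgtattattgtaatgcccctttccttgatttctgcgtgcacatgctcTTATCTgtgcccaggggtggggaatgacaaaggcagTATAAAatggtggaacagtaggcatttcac

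The Sis run held 1 HNF1 site, 165 to 160 bases before the start, and 1 CDX site, 43 to 38 bases before it. It also held the TATA letters on both strands in overlapping matches, from 138 to 133 and from 134 to 129 bases before the start. The Lct run held 2 GATA sites, at 101 to 96 and 90 to 85 bases, and 1 CDX site at 31 to 26 bases. The Mgam run held 2 GATA sites, 1 E-box and a TATA box at 30 to 25 bases. Among the other 6 genes, Slc5a1 had 1 E-box, Khk had 1 E-box and 1 HNF1 site, and Treh, Slc2a2, Slc2a5 and Tkfc had no match to these letters. Over all 32851 promoters of this length, 6.43% held the HNF1 letters, 10.8% the CDX letters, 9.99% the GATA letters, 6.02% the E-box and 12.4% the TATA letters. Such matches are short runs of letters and do not show that a factor binds there. Whether they bear on the values of these genes was not tested.

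The material was the authors' 2 deposited tables, each a comparison of fasted with fed mice, 1 without and 1 with tetracycline. A normalized count is a count divided by a size factor that corrects for the depth of its library. The whole counts behind the tabulated averages could be read back, and they showed 2 fasted and 2 fed libraries in each table, 8 in all, where the labels list 1 sample per group. Which library belongs to which labelled sample, and whether 2 libraries of a side are separate mice, is not given in the sources used here. Library values are therefore shown singly, with no standard deviation and no test of their own. An exact permutation test of 2 against 2 could not give a two-sided p below 0.333, and the authors' DESeq2 test, which shares its estimate of the spread across genes, is not bound by that limit. Of each pair of libraries, the one with the higher size factor is called library 1. The counts read back came to between 48485830 and 66466705 per library. The tables were scaled separately, so levels are compared within a table unless stated.

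The crypt label was set against marker genes. The stem cell marker Olfm4 lay at 46165 and 61216 normalized counts in the fasted and 90280 and 57862 in the fed libraries without tetracycline. Vil1, which encodes the microvillar protein villin, lay at 173985 and 80262 in the fasted and 111438 and 141496 in the fed libraries of that table. With tetracycline the libraries were further apart, with Olfm4 at 75525 and 18132 in the fasted and 42633 and 90519 in the fed, and Vil1 at 54389 and 179102 in the fasted and 142659 and 112505 in the fed libraries. Sis alone averaged 130249 normalized counts per library in the authors' deposited table without tetracycline. In bulk RNA of this kind, fewer cells of a type and less RNA per cell cannot be told apart.

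Per kilobase of exon, the level was highest for Slc5a1 and lowest for Slc2a5 in both tables. Without tetracycline the averages over the table's 4 libraries were 23936 normalized counts per kilobase for Slc5a1, 17450 for Sis, 12935 for Mgam, 12318 for Khk, 10096 for Lct, 8915 for Treh, 7304 for Tkfc, 3097 for Slc2a2 and 2612 for Slc2a5. With tetracycline the order was the same except that Treh, at 9551, stood before Lct, at 6445. Neighbours in this order had overlapping library ranges in both tables, with 1 exception: without tetracycline the lowest library of Tkfc (5188) lay just above the highest of Slc2a2 (5113). The genes share their libraries and these ranges do not pair the values of a library. An overlap therefore does not show that the order changed within a library, and that order was not tallied. Exons of Treh overlap those of Phldb1, and exons of Tkfc overlap those of Cyb561a3 and Ddb1, so their counts are uncertain where the strand is not kept.

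**Figure D1:**
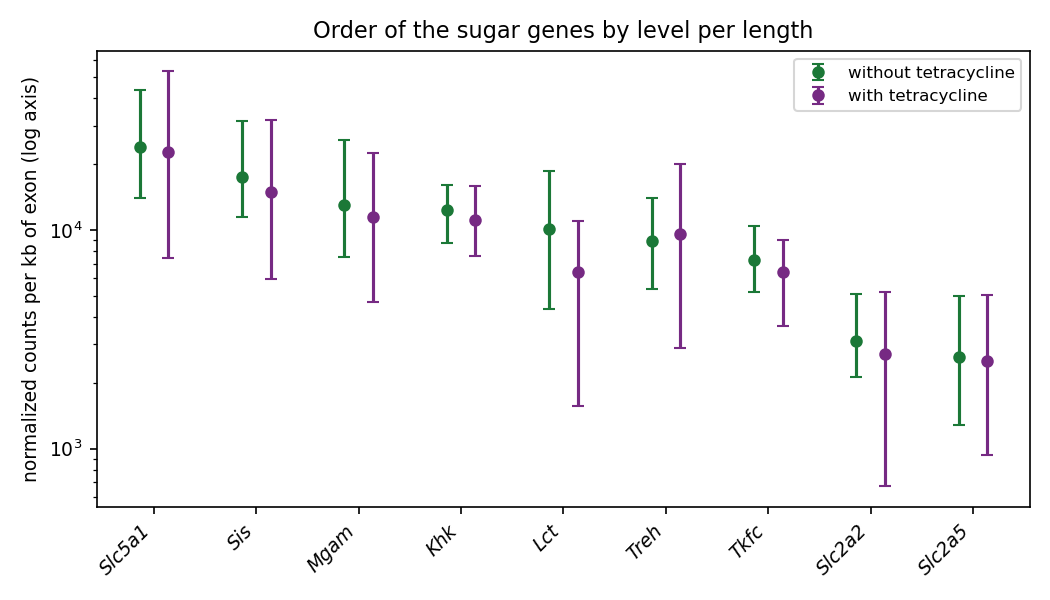
Normalized counts per kilobase of exon on a log axis for the 9 genes, in order of their average without tetracycline. Points are averages over the 4 libraries of a table, and bars run from the lowest to the highest library. The bars of neighbouring genes overlap, except between Tkfc and Slc2a2 without tetracycline, and they do not pair the values of a library.

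Fasting without tetracycline gave no call among the 9 genes. In the authors' deposited table (DESeq2 Wald test with Benjamini-Hochberg adjustment), 0 of 9 had an adjusted p under 0.05, where 2.27% of all 18100 tested genes did. At an unadjusted p under 0.05 the count was 4 of 9 (Mgam, Slc5a1, Sis and Slc2a5, each with a positive change), beside 10.8% of all tested genes. The change was above 0 for 8 of 9, beside 50.5% of all tested genes, with a median of 0.54 on the log2 scale beside 0.0067 over all tested genes. The 2 fasted libraries lay far apart, as the values per gene show. A positive change is read as higher in fasted mice, which no column of the tables states.

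Mgam (ENSMUSG00000068587.11, chr6:40628831-40769123), maltase-glucoamylase, releases glucose from starch fragments. It had 225223 and 86180 normalized counts in the fasted and 65183 and 73766 in the fed libraries without tetracycline. It was the one gene of the 9 with both fasted libraries above both fed ones, an arrangement that 19.9% of genes with a mean of at least 50 showed. The authors' deposited table gave a log2 change of 1.16 (SE 0.40), a 2.24-fold ratio with a 95% interval from 1.31 to 3.83, and an adjusted p of 0.0993 by DESeq2. With tetracycline the fasted libraries lay at 40723 and 194573 and the fed at 74459 and 88093, so that 1 fasted library was the lowest and the other the highest. With tetracycline 0 of the 9 genes had both fasted libraries above both fed ones, beside 15.7% of genes. The authors' deposited table gave 0.53 (SE 0.69) there.

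Sis (ENSMUSG00000027790.15, chr3:72888557-72967863), sucrase-isomaltase, splits sucrose and the branch points of starch. Without tetracycline its fasted libraries had 235358 and 94283 normalized counts and its fed libraries 85470 and 105887. The first fasted library stood 2.46-fold above the mean of the fed libraries, and the second at 0.985 of it, inside the fed range. The authors' deposited table gave a log2 change of 0.78 (SE 0.39, adjusted p 0.436 by DESeq2). With tetracycline the fasted libraries had 44593 and 238224 and the fed 69785 and 90487, and the authors' deposited table gave 0.82 (SE 0.71).

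Lct (ENSMUSG00000026354.9, chr1:128284756-128328318), lactase, splits milk sugar. It showed the widest gap between fasted libraries of the 9 genes without tetracycline, 119650 against 27981 normalized counts, with fed libraries at 43566 and 67510. Only 0.391% of genes with a mean of at least 50 had a gap between these fasted libraries at least as large in that direction. With tetracycline the fasted libraries had 10035 and 69982 and the fed 41582 and 43546. The authors' deposited tables gave changes of 0.41 (SE 0.89) without and -0.089 (SE 0.77) with tetracycline, so that even the sign differed between them.

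Treh (ENSMUSG00000032098.14, chr9:44673233-44686305), trehalase, splits the fungal and insect sugar trehalose. Its fasted libraries had 28775 and 10935 normalized counts without tetracycline, outside the fed values of 11713 and 21607 on both sides. With tetracycline the fasted libraries had 5930 and 40793 around fed values of 15577 and 15942. The authors' deposited tables gave changes of 0.25 (SE 0.43) and 0.57 (SE 0.76).

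**Figure D2:**
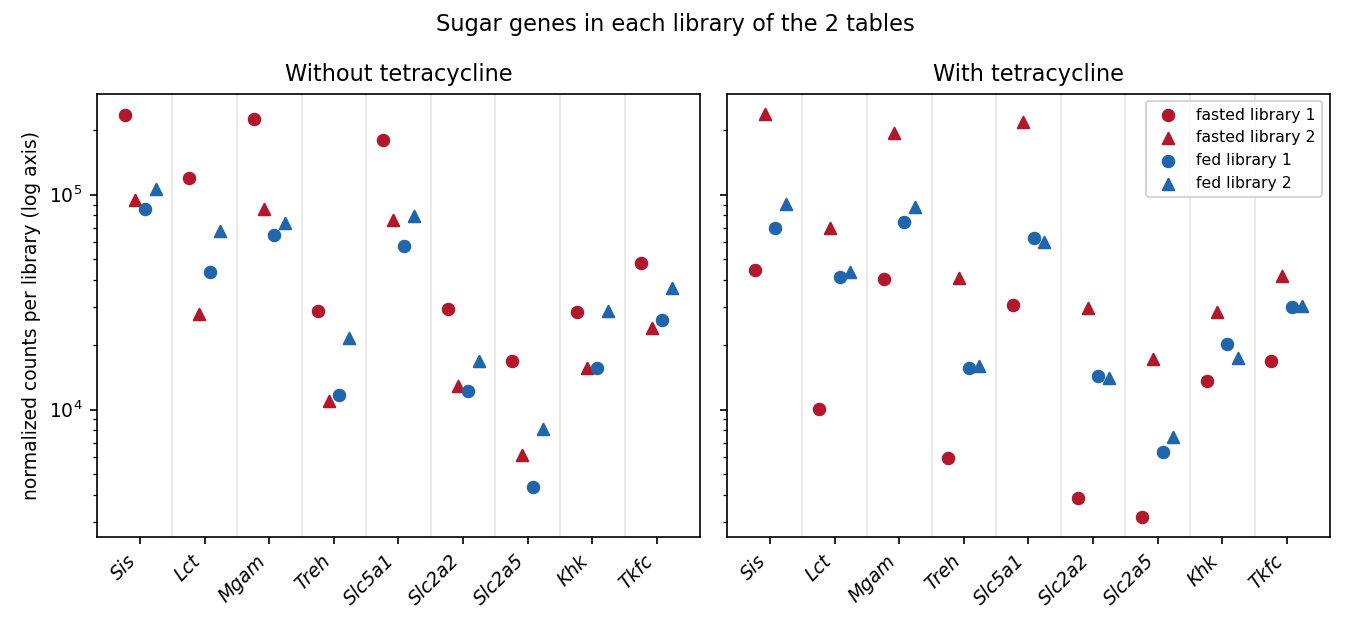
Normalized counts on a log axis for the 9 genes in each of the 8 libraries, by table. Red marks fasted and blue fed libraries, and circles and triangles are libraries 1 and 2 of a side. Without tetracycline fasted library 1 lies above both fed libraries for 8 of 9 genes, and with tetracycline fasted library 2 does so for 9 of 9 while fasted library 1 lies below both for 9 of 9.

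Among the transporters, Slc5a1 (ENSMUSG00000011034.7, chr5:33104219-33162870), the sodium-coupled glucose carrier, was the most abundant. Without tetracycline it had 179608 and 76415 normalized counts in the fasted and 57469 and 79437 in the fed libraries. The first fasted library was 2.62-fold and the second 1.12-fold the fed mean, with the second inside the fed range. The authors' deposited table gave a log2 change of 0.90 (SE 0.38, adjusted p 0.290 by DESeq2). With tetracycline it had 30638 and 217483 in the fasted and 63059 and 60350 in the fed libraries, and the authors' deposited table gave 1.01 (SE 0.77), the highest of the 9 genes there.

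Slc2a5 (ENSMUSG00000028976.11, chr4:150119283-150144169), the fructose carrier, had 16871 and 6137 normalized counts in the fasted and 4379 and 8156 in the fed libraries without tetracycline. The authors' deposited table gave a change of 0.88 (SE 0.44, adjusted p 0.451 by DESeq2). With tetracycline the values were 3170 and 17166 fasted against 6339 and 7476 fed, with a change of 0.56 (SE 0.72) in the authors' deposited table. In both tables the high value came from the same fasted library as for Sis and Slc5a1.

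Slc2a2 (ENSMUSG00000027690.14, chr3:28697903-28731359), the exit carrier on the blood side, had 29427 and 12837 normalized counts in the fasted and 12263 and 16764 in the fed libraries without tetracycline. With tetracycline its 2 fasted libraries were the furthest apart of the 9 genes, 3872 against 29804, a 7.70-fold gap, while the fed libraries lay at 14331 and 14045. The authors' deposited tables gave changes of 0.54 (SE 0.38) and 0.25 (SE 0.79).

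The 2 fructose enzymes had the smallest gaps between fasted libraries. Khk (ENSMUSG00000029162.16, chr5:30921431-30931248) had 28391 and 15623 normalized counts in the fasted and 15636 and 28890 in the fed libraries without tetracycline, so that each side held 1 high and 1 low value. Its change in the authors' deposited table was -0.017 (SE 0.37), the only one of the 9 below 0 without tetracycline. With tetracycline it had 13608 and 28390 fasted against 20185 and 17311 fed, a change of 0.16 (SE 0.48) in the authors' deposited table.

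Tkfc (ENSMUSG00000034371.10, chr19:10587791-10605654) had 48174 and 23952 normalized counts in the fasted and 26103 and 36668 in the fed libraries without tetracycline. With tetracycline it had 16744 and 41675 fasted against 30116 and 30222 fed. The authors' deposited tables gave changes of 0.20 (SE 0.36) and -0.047 (SE 0.53). Over all 8 libraries the highest value was 2.88 times the lowest for Tkfc and 2.12 times for Khk, against 5.34 to 11.9 times for the other 7 genes, with the 2 tables scaled separately.

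Fasting with tetracycline gave no call either. In the authors' deposited table, 0 of 9 genes had an adjusted p under 0.05 by DESeq2 (0.600% of all 17993 tested genes), and 0 of 9 had an unadjusted p under 0.05 (5.34% of all). The adjusted p was 0.99991 for each of the 9. The change was above 0 for 7 of 9 genes, beside 48.2% of all tested genes, with a median of 0.53 beside -0.018. The standard errors were larger than without tetracycline for 8 of 9 genes, all but Lct, at 0.48 to 0.79 against 0.36 to 0.89, and the 95% interval of each of the 9 changes included 0.

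**Figure D3:**
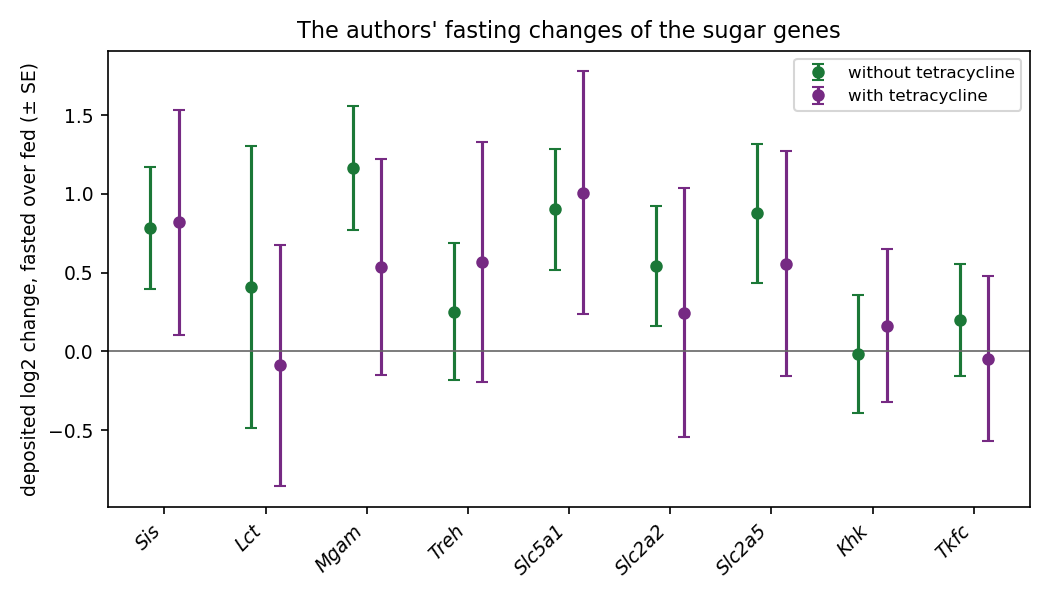
The authors' deposited log2 change of fasted over fed for the 9 genes, without (green) and with (purple) tetracycline. Bars are the deposited standard errors. Most changes lie above 0, the highest at 1.16 for Mgam without tetracycline, and no gene has an adjusted p under 0.05 in either table.

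Most of the positive changes rested on 1 fasted library in each table, and those of Mgam and Slc5a1 without tetracycline did so only in part. Without tetracycline, fasted library 1 lay above both fed libraries for 8 of 9 genes (37.9% of genes with a mean of at least 50), while fasted library 2 did so for 1 (32.6% of genes), and lay below both fed libraries for 4 (43.5% of genes). With tetracycline, fasted library 2 lay above both fed libraries for 9 of 9 (43.7% of genes) and fasted library 1 below both for 9 of 9 (43.6% of genes). The 2 fasted libraries were at least 2-fold apart for 8 of 9 genes without and 9 of 9 with tetracycline, where 6.78% and 23.2% of genes were. The fed libraries were 1.13- to 1.86-fold apart without and 1.0- to 1.30-fold with tetracycline. They were closer than the fasted libraries for each gene in both tables, except for Khk without tetracycline (1.85-fold fed, 1.82-fold fasted).

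Leaving out that library turned the direction of most of the genes. Without fasted library 1 of the table without tetracycline, 2 of 9 changes were above 0 (0.31 for Mgam and 0.16 for Slc5a1), the lowest was -0.99 for Lct and the median was -0.18. Without fasted library 2 of the table with tetracycline, 0 of 9 were above 0 and the median was -1.01, with a range from -2.08 to -0.46. Leaving out the other fasted library gave medians of 1.11 without and 1.26 with tetracycline, and all 9 changes were then above 0.

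The fasting changes were not shown to differ between the 2 tables. The change with minus that without tetracycline ran from -0.63 for Mgam (SE 0.79) to 0.31 for Treh (SE 0.88), with a median of -0.25. By a two-sided Wald test on the deposited DESeq2 estimates with Benjamini-Hochberg adjustment over 17571 genes, 0 of 9 were called (0.0228% of all genes), 0 of 9 had an unadjusted p under 0.05 (1.05% of all), and the lowest unadjusted p was 0.425. The 95% interval of the difference for Sis ran from -1.56 to 1.63 and that for Slc5a1 from -1.58 to 1.79, so that differences of over 2-fold in either direction lie inside.

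Levels with and without tetracycline were set side by side across the separately scaled tables, with no test. In fed mice the mean level with tetracycline was lower for 7 of 9 genes once centred on the median of all genes, with log2 ratios from -0.44 for Lct to 0.17 for Mgam. With size factors common to all 8 libraries, both fed libraries with tetracycline lay below both without it for 1 of 9 genes, Lct, at 41490 and 42776 against 44527 and 68424 normalized counts, an arrangement found in 21.5% of genes. In fasted mice 8 of 9 ratios were below 0, from -0.95 for Lct to 0.17 for Treh, and the libraries overlapped for all 9 genes, where 8.36% of genes lay wholly below and 7.36% wholly above with tetracycline.

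The other genes of the pathway were taken whole from lists written by known function. Of 22 other genes of sugar transport, 20 were tested without and 19 with tetracycline, and 0 were called in either table of the authors (DESeq2, adjusted p under 0.05). At an unadjusted p under 0.05 there were 2 and 3, and the median changes were 0.08 and 0.37.

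Of 24 genes of fructose, galactose and hexose phosphate metabolism in the tables, 2 rose and 1 fell without tetracycline and 1 rose with it. G6pc, the catalytic subunit of glucose-6-phosphatase, rose by 1.46 (SE 0.41, adjusted p 0.0206 by DESeq2) in the authors' deposited table without tetracycline. It had 11268 and 4590 normalized counts in the fasted and 2212 and 3550 in the fed libraries, so the groups did not overlap although fasted library 1 was again the higher. With tetracycline its change was 1.81 (SE 0.72, adjusted p 0.584 by DESeq2) in the authors' deposited table, from 2025 and 10836 normalized counts in the fasted and 1481 and 2187 in the fed libraries. Akr1b8, an aldo-keto reductase, rose by 1.21 (SE 0.33, adjusted p 0.0174) without and 1.50 (SE 0.41, adjusted p 0.0463) with tetracycline by DESeq2 in the authors' deposited tables. Its fasted values of 1066 and 1643 without tetracycline, and 1368 and 1132 with it, were both above the fed values of 479 and 689, and of 371 and 512.

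Aldoc, a brain-type aldolase, fell by 1.10 (SE 0.30, adjusted p 0.0152 by DESeq2) in the authors' deposited table without tetracycline. With tetracycline its change was -0.28 (SE 0.54) in the authors' deposited table.

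Of 24 sugar-sensing and intestinal transcription factor genes, 23 were tested in each table and 0 were called in either (DESeq2), with 2 and 1 at an unadjusted p under 0.05. Their median changes were 0.16 and 0.15 in the authors' deposited tables. The most abundant was Hnf4a, a master regulator of enterocyte genes, with 66204 and 43023 normalized counts in the fasted and 54290 and 51628 in the fed libraries without tetracycline. The summed level of this list lay between 0.943 and 1.27 times the fed mean in all 4 fasted libraries, where the summed level of the 9 sugar genes ran from 0.482 to 2.50 times. A sum is weighted to abundant genes, and single genes of the list differed more. With tetracycline Hnf4g had 12292 and 43968 normalized counts in the fasted and 21289 and 22630 in the fed libraries. Of the 23 genes read back, 14 were higher in fasted library 1 than in fasted library 2 without and 6 with tetracycline.

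The 15 other brush border hydrolases in the tables, chiefly peptidases, ran with the sugar genes. Of these, 0 were called in either table of the authors (DESeq2), 5 and 4 had an unadjusted p under 0.05, and the median changes were 0.64 and 1.06. Anpep, which encodes aminopeptidase N and was the most abundant, had 445468 and 155052 normalized counts in the fasted and 197274 and 203637 in the fed libraries without tetracycline. All 15 were higher in fasted library 1 than in fasted library 2 without tetracycline, and all 15 were lower in it with tetracycline, as were all 9 sugar genes.

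Set against these hydrolases, the sugar genes varied less between libraries than in level. The sum of the 9 genes came to 72.8% and 76.9% of the summed hydrolases in the fasted and 63.2% and 66.9% in the fed libraries without tetracycline. With tetracycline it came to 66.7% and 68.7% in the fasted and 75.8% and 78.5% in the fed libraries. The fasted shares lay above the fed shares in 1 table and below them in the other. Over the 8 libraries this share varied 1.24-fold, while the sum of the 9 genes varied 5.38-fold and that of the hydrolases 5.04-fold. Taken singly, the ratio to the hydrolases varied 1.30-fold for Sis, 1.51-fold for Slc5a1, 1.53-fold for Treh, 1.67-fold for Mgam, 1.86-fold for Slc2a5, 2.12-fold for Slc2a2 and 2.61-fold for Lct. For Khk it varied 2.41-fold, more than the 2.12-fold of its level, and for Tkfc 2.09-fold.

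Genes of brush border structure, which belong to the same absorptive cells, and markers of other cell types also differed between these libraries, and their part in the values of the sugar genes was not tested. Of 15 genes of brush border structure, 14 were higher in fasted library 1 than in fasted library 2 without and 1 with tetracycline, with 0 called by DESeq2 in the authors' deposited tables and 1 in each at an unadjusted p under 0.05. Their summed level was 1.57 and 0.723 times the fed mean without and 0.506 and 1.58 times with tetracycline. All 8 Paneth cell genes had changes above 0 in both of the authors' deposited tables, and 5 rose without tetracycline by DESeq2, among them Mmp7 by 2.07, Ang4 by 1.28, Defa24 by 1.15 and Defa30 by 1.39. With tetracycline 0 of the 8 were called (DESeq2), with 2 at an unadjusted p under 0.05. Their summed level was 1.70 and 2.15 times the fed mean in the fasted libraries without tetracycline. With tetracycline it was 3.72 and 0.701 times, highest in the fasted library where all 9 sugar genes were lowest.

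The 10 stem cell genes were summed at 0.765 and 1.0 times the fed mean in fasted libraries 1 and 2 without tetracycline. The fed libraries there lay at 1.23 and 0.774 times. With tetracycline the fasted libraries lay at 1.32 and 0.411 times and the fed at 0.653 and 1.35 times, so the higher fasted value was inside the fed range. Of the 10 genes, 0 were called in either table of the authors (DESeq2), with 1 and 0 at an unadjusted p under 0.05. Olfm4 is the most abundant of them, and its changes were -0.46 and -0.51, while 8 of the 10 genes without and 7 with tetracycline had changes above 0 in the authors' deposited tables, with medians of 0.32 and 0.27. The 11 lymphocyte and myeloid genes were summed at 0.385 and 0.719 times the fed mean without tetracycline, where the fed libraries lay at 0.868 and 1.13 times. With tetracycline the fasted libraries lay at 0.518 and 0.0926 times and the fed at 1.57 and 0.435 times. The fed libraries were thus far apart there, and fasted library 1 stood above fed library 2. Of the 11 genes, 4 fell without tetracycline by DESeq2 in the authors' deposited table, among which Ms4a1 fell by 2.40, Cd79a fell by 2.46 and Lyz2 fell by 1.47. None of the 11 had a change above 0 in either of the authors' deposited tables, 7 and 6 had an unadjusted p under 0.05, and 0 were called with tetracycline (DESeq2). No gene of the stem cell, Paneth or lymphocyte and myeloid lists had a mean under 10.

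**Figure D4:**
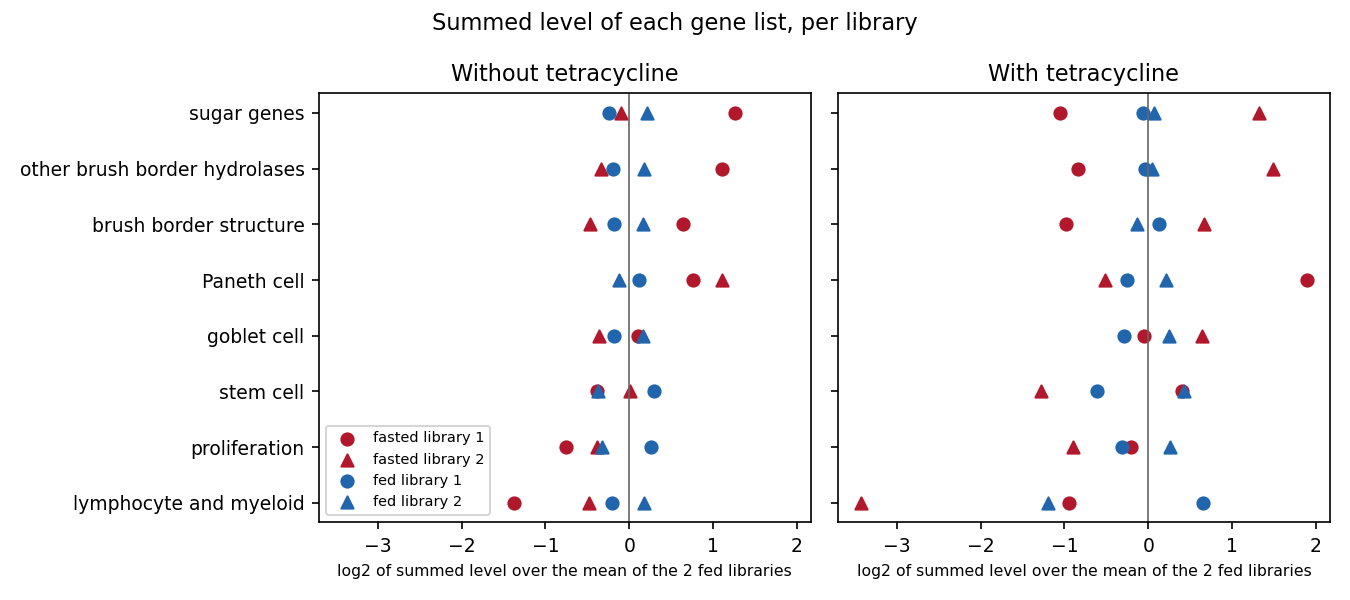
Summed normalized counts of 8 gene lists in each library, as the log2 of the ratio to the mean of the fed libraries of the same table. Red marks fasted and blue fed libraries, and circles and triangles are libraries 1 and 2. The sugar genes and the other brush border hydrolases are highest in fasted library 1 without and in fasted library 2 with tetracycline, and the stem cell list is lower in that fasted library than in the other.

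Genes with a known position along the gut also varied. Of 11 genes typical of the proximal small intestine, 5 without and 3 with tetracycline had changes above 0 in the authors' deposited tables, with medians of -0.46 and -0.32. Fabp1, a fatty acid binding protein, rose by 1.08 (adjusted p 0.00656 by DESeq2) without tetracycline in the authors' deposited table, and with tetracycline its change was 0.98 (adjusted p 0.553). Slc40a1, the iron exporter, fell by 1.28 (adjusted p 0.0113) without tetracycline and fell by 1.91 (adjusted p 0.0201) with it, by DESeq2 in the authors' deposited tables. In a list of 10 genes written for the distal small intestine, which also holds Gip, a hormone gene of the proximal gut, and Clu, which is not specific to a region, Fabp6, the ileal bile acid binding protein, fell by 5.13 (adjusted p 1.46e-48) and Clu rose by 4.32 (adjusted p 0.00128) without tetracycline by DESeq2 in the authors' deposited table, and 0 were called with it (3 at an unadjusted p under 0.05). Deposited changes of this distal list lay above 0 for 4 of its 10 genes without tetracycline, with a median of -0.18. Under tetracycline 7 of the 10 lay above 0, with a median of 0.36. The part of the sampled gut region in the values of the sugar genes was not tested.

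The remaining marker lists were counted in the same way in the authors' deposited tables (DESeq2). Of 12 proliferation genes, 1 fell without tetracycline (Birc5, a mitotic gene, which fell by 1.0) and 0 were called with it, with 6 and 0 at an unadjusted p under 0.05. All 12 had changes below 0 in both tables, with medians of -0.64 and -0.50. Of 10 stromal genes, 3 fell without tetracycline, all of them collagen genes: Col3a1 fell by 4.24, Col1a2 fell by 2.93 and Col1a1 fell by 2.61. The other 7 were not called, 1 of the 10 had a change above 0 in each table, and 0 were called with tetracycline, with 4 and 2 at an unadjusted p under 0.05.

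Of 7 goblet cell genes, 1 fell without tetracycline in the authors' deposited table (DESeq2), Agr2, which fell by 1.20. Changes were above 0 for 2 of the 7 without and 5 with tetracycline, where 0 were called, and 2 and 0 had an unadjusted p under 0.05. Of 7 enteroendocrine genes, 1 fell without tetracycline there, the hormone gene Cck, which fell by 1.02. Changes were above 0 for 2 of the 7 without and 5 with tetracycline, where 0 were called, and 2 had an unadjusted p under 0.05 in each table. Of 10 pancreatic acinar genes, 0 were called in either table, with 4 and 0 at an unadjusted p under 0.05. Changes were above 0 for 0 of the 10 without and 3 with tetracycline, with medians of -1.71 and -0.43. The summed level of the 9 that were read back was, without tetracycline, 195 and 216 normalized counts in the fasted and 108 and 1044 in the fed libraries, so that 1 fed library stood apart.

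The genes most like Sis and Slc2a5 were found by the distance between their 4 rebuilt group means (log2 of the mean + 1, less their average), among 12478 genes with a symbol and a mean of at least 50 in both tables. Nearest to Sis were Myorg (distance 0.051), Arhgdig (0.058) and 5930430L01Rik (0.059). Nearest to Slc2a5 were Adra2a (0.066), Dync2h1 (0.069) and Vegfa (0.078). None of these 6 is among the 9 genes, and with 4 group means a close match is a description only.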

How the data were processed

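RNA of small intestinal crypts was sequenced in 4 labelled samples, and 2 tables of the authors' comparisons were analysed. The tools Salmon and DESeq2 and the build mm10 are named, without versions, per the submitters' processing notes. Per the file headers, the authors' mean is a signal, the average of counts divided by size factors. The deposited fold changes and their errors are log2 values, the deposited test statistic is a score, and the deposited p-values carry a Benjamini-Hochberg adjustment. No column states the direction of the change. The tables' names put fasted before fed, so positive values were taken as higher in fasted mice, and every direction given, and which libraries are called fasted, rests on that reading. In the fit used to read counts back, the deposited changes were returned with the side so called fasted as the reference level of the model. DESeq2 by default takes the first group name in alphabetical order as the reference, and the group names used are not given in the sources used here.

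A deposited mean adds up whole counts, each weighted by a step fixed for its library. Whole counts per library were read back for 99.8% of the 16863 genes without and 99.8% of the 17174 genes with tetracycline that had a mean of at least 10. A set of counts was kept when it returned the deposited fold change within 1e-10. These genes held 84.3% and 85.0% of the summed means, and Apoa4 was among those not read back. Size factors ran from 0.727 to 1.27. No count model was run. The tables held 0 other columns of single samples.

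Calls are the authors' adjusted p under 0.05. Both the reading back of counts and the Wald test of the difference between tables were tried on simulated data first. For the Wald test, the differences put in were 5 on the log2 scale, and 99.5% of them were found. Among the 9 genes the difference furthest from 0 was -0.63, and recovery of differences of that size was not tested. The statistic on the deposited estimates had a robust SD of 0.714. Group means for the tetracycline levels were rebuilt from the deposited mean and fold change with pseudocount 1. The 95% intervals are normal intervals from the deposited SE. Positions and exon lengths (the union of a gene's exons) come from GENCODE mouse release 21. Python 3.11.15, numpy 2.4.6, pandas 2.3.3, scipy 1.17.1 and matplotlib 3.10.9 were used.

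The 9 genes and the 15 other gene lists were chosen with earlier results of these data known. Akr1b1 and Cpo, 2 listed genes, were not in the tables. Genes outside the 9 were named if called in either table (at most 4 per marker list, by smallest adjusted p) or, in the pathway and brush border lists, if they had the highest mean. Some genes that this rule names are not reported here. The genes nearest to Sis and Slc2a5 were added, and Olfm4 and Vil1 were given to describe the material. Alternatives were other pseudocounts, centring, adjustment sets, thresholds and leaving out each library.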

Additional observations from a re-analysis of the deposited data

How the results depend on the processing

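No paired analysis was possible because the labels give 1 sample per group and no replicate numbers, and the libraries in the tables carry none. The count of called genes without tetracycline went from 0 to 1 (Mgam) at an adjusted p under 0.1, and was 0 under the other settings tried. The counts with tetracycline and for the difference between the tables were 0 under every setting tried for them. The change of Khk without tetracycline went from -0.017 to 0.0036 when centred on the median of genes with a mean of at least 50, so its sign is not determined. The number of genes with a change above 0, recounted without each library in turn (chosen after seeing the data), ran from 2 to 9 without and from 0 to 9 with tetracycline, the lowest values coming without fasted library 1 and without fasted library 2. The other values of the fasting changes that kept all libraries (35 without and 36 with tetracycline) and 27 of their differences kept their direction and their side of the threshold. Most of these settings could hardly alter a direction, because the adjustment sets leave the change as it is and these means are high. Leaving out 1 library moved 20 of the fasting changes without tetracycline by more than their SE, while 16 moved less. With tetracycline 16 moved by more than their SE and 20 moved less. The 36 tetracycline levels in fed and 36 in fasted mice moved by less than the spread between libraries. Precision is limited by 2 libraries a side. The counting error of these abundant genes is small beside the spread between fasted libraries.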
